A study of Mus musculus with 8 samples.

Results

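The 10 hepatic nuclear receptors *Ppara*, *Ppard*, *Pparg*, *Rxra*, *Rxrb*, *Hnf4a*, *Nr1h4*, *Nr0b2*, *Nr1i2* and *Nr1i3* were followed in the livers of *Agpat3* WT and *Agpat3* KO mice. Their probes were chosen through the transcript accession printed on the array, which leads to a gene symbol in a RefSeq gene table. This gave 16 of 56605 probes without controls and 10 of 22911 named genes, chosen by name and not by their measured values. The mice were male C57BL/6 animals of 10 weeks, 4 of each genotype, and the total RNA of frozen liver was measured with 1 one-color Agilent array per mouse. The *Agpat3* KO line lacks the acyltransferase in the whole body and not in hepatocytes alone, and the arrays were run to look for mechanisms that set the arachidonic acid level of this liver. The labels name no drug, diet or other treatment.

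Nuclear receptors are transcription factors, most of which are switched by small lipophilic ligands. RXRs are the shared partners of the PPARs, of FXR (*Nr1h4*), PXR (*Nr1i2*) and CAR (*Nr1i3*), while HNF4A acts as a homodimer and SHP (*Nr0b2*) lacks a DNA-binding domain and represses other factors. In the liver, PPARA is known for fatty acid oxidation, HNF4A for hepatocyte identity, FXR and SHP for bile acid balance, and PXR and CAR for the response to foreign compounds. Polyunsaturated fatty acids are known ligands of the PPARs, and docosahexaenoic acid is a known ligand of RXRs.

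None of the 10 receptors was called higher or lower in *Agpat3* KO liver. A gene was called when its brightest probe differed by over 1.5-fold with an adjusted p under 0.2 (limma, two-sided, Benjamini-Hochberg over all probes tested). Of the 14067 genes tested, 142 (1.01%) were called higher and 106 (0.754%) lower, and over the 29069 probes tested the shares were 0.939% and 0.726%, so a count of 0 among 10 genes lies near the background. Without a fold minimum, *Rxrb* alone passed the adjusted p, with lower values in KO liver, against 2.36% of all genes. At an unadjusted p under 0.05, 3 receptors were lower, *Rxra*, *Rxrb* and *Hnf4a*, against 8.25% of all genes, and none was higher. The median log2 fold change (KO over WT) was -0.07 over the receptors and -0.03 over all genes tested. For 8 of the 10 receptors the 95% interval of the difference lay within 1.5-fold in both directions, as it did for 76.2% of all genes, and the exceptions were *Pparg* and *Hnf4a*.

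Nuclear receptors commonly bind the hexamer AGGTCA, and several of these genes are known targets of other receptors, so the 250 bases before each RefSeq start site (GRCm38.p6) were searched for it on both strands. It was found before 4 of the 15 start sites of the receptors, in *Pparg*, *Rxra* and *Nr1h4*, and before 14% of all 32851 start sites. Counted by gene, 3 of 10 receptors and 15.8% of all genes held it before at least 1 start site. No receptor held 2 copies in direct repeat with a spacing of 0 to 5 bases. Each of these spacings was found before at most 0.0335% of all start sites, so their absence here says little about the receptors. The 4 sequences with a match are printed 5′ to 3′ with the hexamer or its reverse complement in capitals, followed by the first *Rxrb* start site, which has no match and belongs to the receptor with the smallest p. The expression values do not show which start site was used.
Pparg, first start site: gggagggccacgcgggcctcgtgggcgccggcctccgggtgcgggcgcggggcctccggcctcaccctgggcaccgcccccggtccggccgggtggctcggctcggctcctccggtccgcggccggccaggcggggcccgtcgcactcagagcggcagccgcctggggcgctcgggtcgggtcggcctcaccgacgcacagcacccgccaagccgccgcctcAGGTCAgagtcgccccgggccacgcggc
Pparg, second start site: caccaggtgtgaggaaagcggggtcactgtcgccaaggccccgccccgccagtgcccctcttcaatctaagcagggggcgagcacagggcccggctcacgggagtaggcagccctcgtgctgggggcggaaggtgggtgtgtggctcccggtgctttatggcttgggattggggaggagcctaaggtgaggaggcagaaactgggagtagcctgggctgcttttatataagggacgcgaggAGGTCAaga
Rxra, second start site: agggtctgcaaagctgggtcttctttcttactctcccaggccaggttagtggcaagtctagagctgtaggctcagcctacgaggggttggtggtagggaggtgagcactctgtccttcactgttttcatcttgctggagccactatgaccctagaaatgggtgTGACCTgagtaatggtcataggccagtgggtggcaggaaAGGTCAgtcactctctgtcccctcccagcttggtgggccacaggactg
Nr1h4, start site: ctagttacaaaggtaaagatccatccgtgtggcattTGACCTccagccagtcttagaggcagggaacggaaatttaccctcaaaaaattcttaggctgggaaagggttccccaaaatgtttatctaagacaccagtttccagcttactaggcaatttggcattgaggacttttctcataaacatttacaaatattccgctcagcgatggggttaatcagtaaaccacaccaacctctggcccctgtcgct
Rxrb, first start site: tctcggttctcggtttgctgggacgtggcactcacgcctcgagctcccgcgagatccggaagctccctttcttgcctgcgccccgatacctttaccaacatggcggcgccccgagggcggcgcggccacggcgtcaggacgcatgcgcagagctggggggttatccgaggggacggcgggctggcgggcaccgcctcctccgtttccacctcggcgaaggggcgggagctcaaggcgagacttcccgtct
The *Pparg* sequences are chr6:115360894-115361143 and chr6:115362099-115362348 on the plus strand, with the match beginning 28 and 9 bases before the start site. The *Rxra* sequence is chr2:27709042-27709291 on the plus strand, with matches beginning 87 and 48 bases before the start. The *Nr1h4* sequence is chr10:89506659-89506908 on the minus strand, with a match beginning 214 bases before the start, and the *Rxrb* sequence is chr17:34031562-34031811 on the plus strand. A match describes the letters and is not a measured binding site.

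All values are log2 signals scaled to the 75th percentile of their own array, given in the order of mice 1 to 4, and levels of different probes are not comparable. *Agpat3*, the targeted gene, was 5.65, 5.66, 5.80 and 5.88 in WT liver and -0.48, 0.02, -0.58 and -0.47 in KO liver, a log2 fold change of -6.12 (SE 0.14, adjusted p = 4.46e-07, limma). Its second probe gave -5.69, so both probes were in accord with the labels of all 8 arrays. The hepatocyte markers matched the labelled tissue, with 8 of 8 well above background on all arrays and a mean level of 9.05 to 9.15 in WT and 8.995 to 9.03 in KO liver. This mean was slightly lower on every KO array than on any WT array. Of the markers, 6 had a negative and 2 a positive log2 fold change, and none was called. The part of this shift in small receptor differences was not tested. All arrays lay on 1 slide, with the WT samples in row 1 and the KO samples in row 2, so slide row and genotype cannot be told apart. Correlations over tested probes were 0.988 to 0.996 within WT, 0.990 to 0.993 within KO and 0.985 to 0.992 across genotypes, and no array stood apart. In whole liver, fewer cells of a type and less RNA per cell cannot be told apart. All 16 receptor probes were well above background on all 8 arrays, and all were tested.

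**Figure D1:**
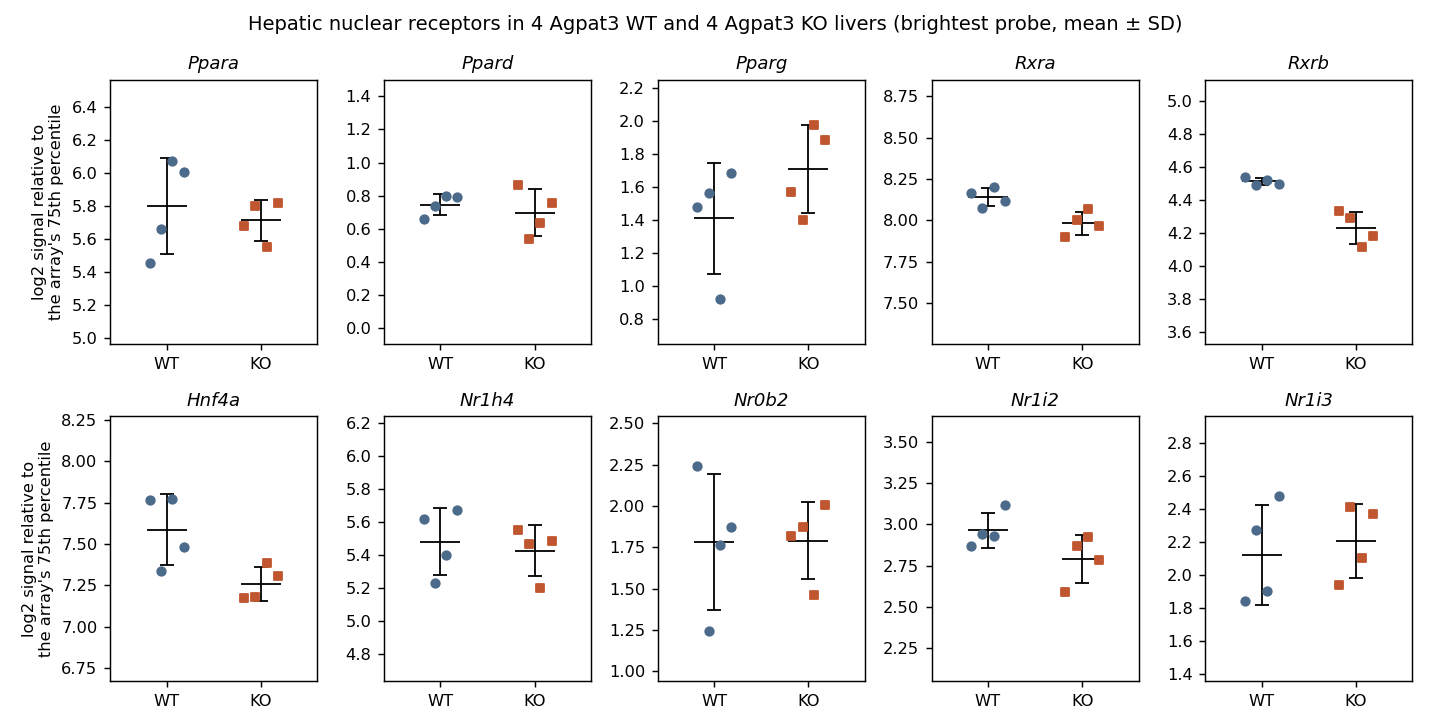
Log2 signal of the brightest probe of each receptor, scaled to the 75th percentile of its array, in 4 *Agpat3* WT (circles) and 4 *Agpat3* KO (squares) livers, with mean and SD; every panel spans the same range of log2 units, and its zero point is its own. *Rxra* and *Rxrb* are the receptors whose KO values all lie below the WT values.

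For the retinoid X receptors *Rxrb* and *Rxra*, all KO values lay below all WT values with the brightest probe, and neither gene was called. *Rxrb* gave 4.54, 4.49, 4.52 and 4.50 in WT liver and 4.33, 4.29, 4.12 and 4.18 in KO liver with its brightest of 3 probes. No KO value reached a WT value, and the WT mice lay within a narrow band (4.51 ± 0.02 against 4.23 ± 0.10, mean ± SD, n = 4). The log2 fold change was -0.28 (95% interval -0.44 to -0.12, adjusted p = 0.145 by limma), a 1.22-fold difference that missed the 1.5-fold minimum. The exact two-sided permutation test gave p = 0.0286, the smallest that 4 against 4 mice allow. Every gene without overlap between genotypes has this p, *Rxra* included, so it adds nothing to the order of the values. The other probes gave -0.27, again without overlap between genotypes, and -0.17 with overlap, and neither passed the adjusted p (0.255 and 0.474).

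*Rxra*, the main RXR of hepatocytes, gave 8.17, 8.08, 8.20 and 8.12 in WT liver and 7.90, 8.0, 8.07 and 7.97 in KO liver. The genotypes did not overlap, although the highest KO mouse lay just under the lowest WT mouse. The log2 fold change was -0.16 (95% interval -0.31 to -0.01, adjusted p = 0.356), and a dimmer probe gave -0.10 (adjusted p = 0.642) with overlap. *Rxra* and *Rxrb* are thus 2 of 10 receptors with all KO values below all WT values, and 5.87% of all genes tested had this order. The remaining RXR gene, *Rxrg*, named after its values were seen, went the other way. All its KO values (0.91 to 1.52) lay above all its WT values (0.19 to 0.91) by a narrow margin. This order was found in 540 of all 14067 genes tested. The log2 fold change of *Rxrg* was 0.44 (adjusted p = 0.388).

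*Hnf4a*, the receptor that maintains hepatocyte gene expression, was 7.77, 7.33, 7.77 and 7.48 in WT liver and 7.17, 7.18, 7.38 and 7.30 in KO liver. The lowest WT mouse lay below the highest KO mouse, and the WT mice were spread more widely (SD 0.22 against 0.10, n = 4). The log2 fold change was -0.33 (95% interval -0.59 to -0.06, adjusted p = 0.276), the most negative of the receptors, with p = 0.0571 in the exact permutation test. The second, dimmer probe gave -0.10 (95% interval -0.46 to 0.27, adjusted p = 0.843). The estimates thus differed between the probes, while their intervals overlapped.

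*Ppara*, the receptor that drives fatty acid oxidation, was 5.46, 5.66, 6.07 and 6.00 in WT liver and 5.68, 5.80, 5.55 and 5.82 in KO liver. The KO values lay inside the range of the WT values. The log2 fold change was -0.09 (95% interval -0.42 to 0.25, adjusted p = 0.845), and the second probe gave -0.03 (95% interval -0.41 to 0.35).

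*Ppard*, the more broadly expressed PPAR, was 0.66, 0.73, 0.80 and 0.79 in WT liver and 0.87, 0.54, 0.64 and 0.75 in KO liver. The genotypes overlapped fully, with both the highest and the lowest value in KO mice, and the log2 fold change was -0.05 (95% interval -0.24 to 0.15). *Pparg*, known for fat storage and lipid droplet genes, was 1.48, 1.56, 0.93 and 1.69 in WT liver and 1.57, 1.40, 1.98 and 1.89 in KO liver. KO mice 3 and 4 lay above all WT mice and WT mouse 3 lay below all others, while the remaining 5 mice overlapped. The log2 fold change was 0.30 (95% interval -0.14 to 0.73, adjusted p = 0.559), the most positive of the receptors. Without WT mouse 3 it was 0.13, it ranged up to 0.40 with another mouse left out, and its interval does not exclude a 1.5-fold difference.

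The bile acid receptors did not differ beyond their spread. *Nr1h4* (FXR), the sensor of bile acids, was 5.62, 5.23, 5.40 and 5.68 in WT liver and 5.55, 5.47, 5.20 and 5.49 in KO liver, with a log2 fold change of -0.05 (95% interval -0.33 to 0.22, adjusted p = 0.887). *Nr0b2* (SHP), which FXR induces and which represses bile acid synthesis, was 2.24, 1.24, 1.76 and 1.87 in WT liver and 1.82, 1.87, 1.46 and 2.01 in KO liver. WT mice held both the highest and the lowest *Nr0b2* value, and the log2 fold change was 0.01 (95% interval -0.47 to 0.49, adjusted p = 0.989).

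The xenobiotic receptors were also not called. *Nr1i2* (PXR) was 2.87, 2.94, 2.93 and 3.11 in WT liver and 2.59, 2.87, 2.92 and 2.78 in KO liver. KO mouse 3 lay among the WT mice and the other KO mice below them, mouse 2 by under 0.01, and the log2 fold change was -0.17 (95% interval -0.39 to 0.04, adjusted p = 0.483). *Nr1i3* (CAR) was 1.84, 2.27, 1.90 and 2.47 in WT liver and 1.94, 2.41, 2.10 and 2.37 in KO liver, with a log2 fold change of 0.08 (95% interval -0.31 to 0.47, adjusted p = 0.878). Its second probe was 0.14, 0.53, 0.18 and 0.76 in WT liver and 0.15, 0.72, 0.32 and 0.85 in KO liver, a log2 fold change of 0.11. With both probes, mice 2 and 4 were the high animals of each genotype and mice 1 and 3 the low ones.

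**Figure D2:**
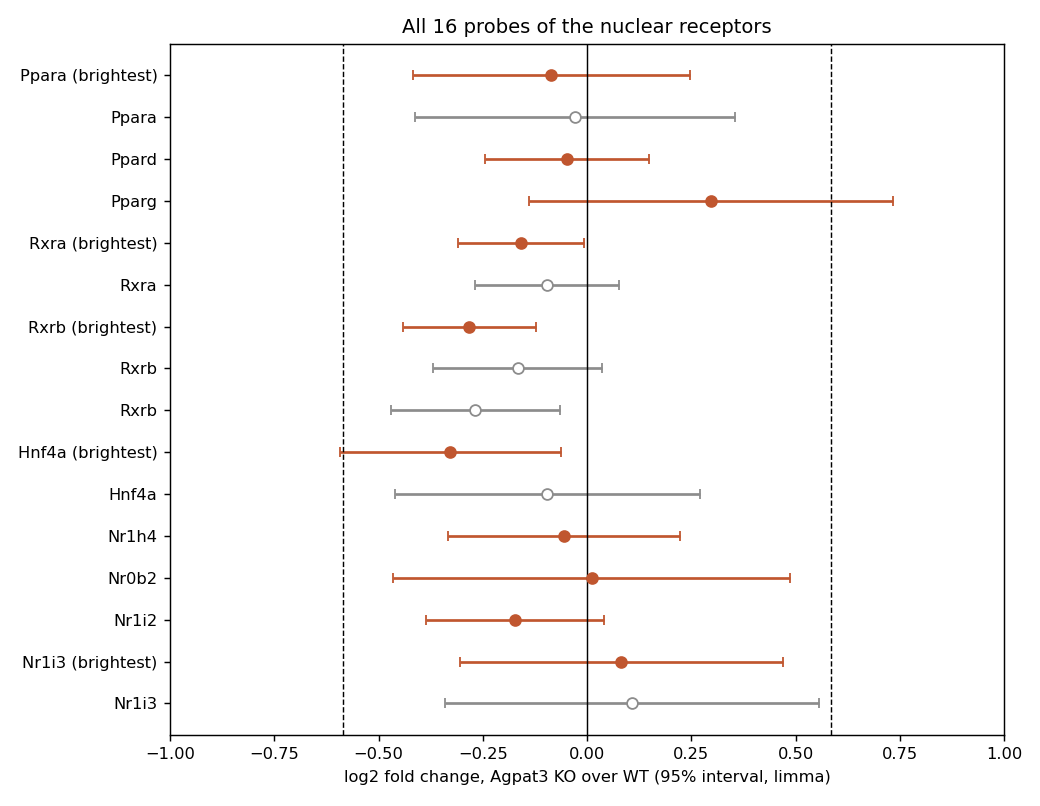
Log2 fold change, *Agpat3* KO over *Agpat3* WT, of all 16 receptor probes with 95% intervals from limma (n = 4 per genotype); filled points are the brightest probe of a gene, open points its other probes, and dashed lines mark 1.5-fold. The *Rxrb* probes give -0.28, -0.17 and -0.27, and no probe has an estimate past 1.5-fold.

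The receptors differed in how closely mice of 1 genotype resembled each other. The SD within genotypes, pooled over both, was 0.06 log2 units for *Rxra* and 0.07 for *Rxrb*, against a median of 0.16 over all genes tested. Only 7.3% of genes had a smaller SD than *Rxra* and 10.9% a smaller one than *Rxrb*. *Nr0b2* (0.33), *Pparg* (0.30) and *Nr1i3* (0.27) varied most, and 86.1% of genes had a smaller SD than *Nr0b2*. A difference of the size seen for *Rxrb* would therefore lie within the spread of *Nr0b2*. All 5 receptors with several probes, *Ppara*, *Rxra*, *Rxrb*, *Hnf4a* and *Nr1i3*, had the same sign with each probe.

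Of 39 other nuclear receptors listed, 38 were on the arrays, 32 were tested, 2 were called higher and none lower, with a median log2 fold change of 0.00. *Rarb*, the retinoic acid receptor beta, rose in KO liver. It was 0.23, 0.41, 0.09 and 0.60 in WT liver and 0.81, 1.57, 1.41 and 1.30 in KO liver, without overlap, a log2 fold change of 0.94 (1.92-fold, SE 0.18, adjusted p = 0.0791). A second *Rarb* probe gave 0.96 (adjusted p = 0.0259), and the remaining one was well above background on 0 of 8 arrays. *Rarb* is also known from stellate cells, whose 7 markers were not called and had a mean level of 1.71 to 2.34 in WT and 1.64 to 1.75 in KO liver. Of these markers, 6 had a negative log2 fold change and 1, *Lrat*, a positive one. *Lrat*, which stores retinoids in stellate cells, was 0.23, 0.25, 0.05 and 0.20 in WT liver and 0.19, 1.00, 0.97 and 0.59 in KO liver (log2 fold change 0.50, adjusted p = 0.272). The KO mice were in the same order as for *Rarb*, but the WT mice were not. *Col1a1* had -0.95 (adjusted p = 0.416). The part of stellate cells in the *Rarb* difference was not tested.

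*Esr1*, the estrogen receptor alpha, also rose. It was 0.61, 0.91, 1.12 and 1.22 in WT liver and 1.51, 1.35, 1.68 and 1.73 in KO liver, a log2 fold change of 0.60 (1.52-fold, SE 0.15, adjusted p = 0.143). The KO mice all lay above the WT mice, and 2 further tested probes gave 0.61 (adjusted p = 0.0738) and 0.58 (adjusted p = 0.139). The fold lay close to the minimum, and the call was lost when any mouse but WT mouse 4 was left out, with log2 fold changes between 0.48 and 0.69 when 1 mouse was left out.

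The other named receptors were not called. *Esrrg*, the estrogen-related receptor gamma, was -4.12, -4.05, -3.44 and -2.45 in WT liver and -1.71, -1.19, -3.33 and -1.65 in KO liver, with 3 of 4 WT arrays well above background. KO mouse 3 lay among the WT mice and the other KO mice above them, and the log2 fold change was 1.54 (SE 0.52, adjusted p = 0.262). It became 1.90 without WT mouse 4 (adjusted p = 0.162) and 2.00 without KO mouse 3 (adjusted p = 0.125), both past the call threshold, but 1.28 without KO mouse 2 and 0.71 with normexp background correction (adjusted p = 0.227), neither of which passed. *Nr4a1*, an immediate early orphan receptor, had -0.71 (adjusted p = 0.77), with values from -0.17 to 3.50 among WT mice alone.

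None of 17 coregulators was called, and their median was 0.02. The coactivator gene *Ppargc1a* was 0.63, 0.83, 0.87 and 1.32 in WT liver and 1.66, 1.41, 1.86 and 1.13 in KO liver, a log2 fold change of 0.60 (adjusted p = 0.237). Its second probe gave 0.58 (adjusted p = 0.393), and KO mouse 4 lay below WT mouse 4. The call threshold was passed without WT mouse 4 (0.74, adjusted p = 0.139) and without KO mouse 4 (0.73, adjusted p = 0.184). *Crebbp*, an acetyltransferase, had 0.40 with its brightest probe and 0.01 with the other, and the corepressor *Ncor1* (-0.15) and the Mediator subunit *Med1* (-0.22) were lowest.

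The 27 PPARA targets were all tested and none was called, with a median of 0.05. At an unadjusted p under 0.05, 6 targets were higher and 1 was lower, against 802 and 1161 of all 14067 genes. *Aldh3a2*, named after its values were seen, did not overlap between genotypes. It passed the adjusted p but not the fold minimum (log2 fold change 0.22, adjusted p = 0.198). *Cyp4a14*, a fatty acid omega-hydroxylase and a sensitive PPARA target, was -1.19, -1.43, -1.28 and -2.88 in WT liver and -0.82, -0.17, 0.81 and -1.95 in KO liver. KO mice 1 to 3 lay above all WT mice and KO mouse 4 below 3 of them, and the log2 fold change was 1.17 (95% interval -0.21 to 2.54, adjusted p = 0.457). With the replicate number, which is also the slide column, as a block, *Cyp4a14* passed the threshold (adjusted p = 0.18), and without KO mouse 3 the difference was 0.72. The hormone gene *Fgf21* had 0.73 (adjusted p = 0.7) with mice of both genotypes spread over more than 2 log2 units, while *Creb3l3* (-0.16) and *Pex11a* (-0.22) were lowest. For 17 of the 27 targets the 95% interval lay within 1.5-fold, a smaller share than the 76.2% of all genes.

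Of 10 PPARG targets, 7 were tested and none was called, with a median of 0.17, and *Adipoq*, *Cidea* and *Plin1* were not tested. Only 1 of the 7 had a 95% interval within 1.5-fold, against 76.2% of all genes, so most of these differences are not bounded. Counted at an unadjusted p under 0.05 (limma), 3 targets were higher and 1 was lower, against 802 and 1161 of all 14067 genes. *Lpl*, lipoprotein lipase, was 2.51, 2.47, 2.50 and 2.44 in WT liver and 2.97, 2.97, 3.31 and 2.83 in KO liver. The genotypes did not overlap, and the log2 fold change of 0.54 (1.45-fold, SE 0.10, adjusted p = 0.0823) missed the fold minimum. With its 2 other probes, at 0.62 (adjusted p = 0.0485) and 0.66 (adjusted p = 0.103), *Lpl* passed both thresholds, so the call depends on the probe. *Cd36*, a fatty acid transporter, was -0.04, 0.19, -0.07 and -0.25 in WT liver and 0.38, 0.71, 1.98 and 0.82 in KO liver. These groups did not overlap either, but the adjusted p was 0.22 for a log2 fold change of 1.01, with KO mouse 3 far above the others. Without KO mouse 3 the difference was smaller, 0.68, and passed the threshold (adjusted p = 0.134), as did 0.94 with normexp (adjusted p = 0.158).

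*Aqp7* (-0.34, adjusted p = 0.255) and *Plin4* (-0.50, adjusted p = 0.507), a glycerol channel and a lipid droplet coat protein, were the lowest PPARG targets. *Plin4* passed the threshold without WT mouse 4 (-0.75, adjusted p = 0.197). *Lpl* and *Cd36* are also expressed by macrophages and adipocytes. Of 6 Kupffer cell markers, all tested, *Marco* fell (log2 fold change -1.22, adjusted p = 0.0983) and the other 5 were not called, with a mean level of 2.13 to 2.90 in WT and 1.80 to 2.59 in KO liver. The adipocyte markers *Retn*, *Plin1* and *Adipoq* were well above background on 0 of 8 arrays, *Cfd* on 4 and *Lep* on 8 (log2 fold change -0.10, not called), and the part of other cells in these differences was not tested.

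No HNF4A target was called among 18 tested, and their median was -0.05. In 16 of the 18 the 95% interval lay within 1.5-fold, against 76.2% of all genes. *G6pc*, the last step of glucose release, was 6.94, 5.30, 6.44 and 7.02 in WT liver and 7.30, 7.37, 5.69 and 7.52 in KO liver, a log2 fold change of 0.54 (adjusted p = 0.697). WT mouse 2 and KO mouse 3 were far below the other mice of their genotype. *Tat*, tyrosine aminotransferase, had 0.21, while *Apoc3* (-0.12), a lipoprotein component, and *Otc* (-0.19), a urea cycle enzyme, were lowest.

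Of 12 FXR targets, 11 were tested and 1 was called, *Pltp*, with a list median of 0.19. At an unadjusted p under 0.05, 3 targets were higher and none was lower, against 802 and 1161 of all 14067 genes. *Apoc2*, named after its values were seen, passed the adjusted p but not the fold minimum (log2 fold change 0.36, adjusted p = 0.188). *Pltp*, the plasma phospholipid transfer protein, rose from 0.82, 1.29, 0.87 and 0.88 in WT liver to 2.17, 2.44, 2.81 and 2.32 in KO liver. No mouse overlapped, and the log2 fold change was 1.47 (2.77-fold, SE 0.16, adjusted p = 0.0118). *Pltp* is also a known target of the LXRs, whose genes *Nr1h3* (0.04) and *Nr1h2* (-0.09), named after their values were seen, were not called. The RNA level of a receptor does not measure its activity, and the part of FXR or the LXRs in the *Pltp* difference was not tested. *Slc51b*, a bile acid exporter subunit, had 1.18 (adjusted p = 0.381) and passed the threshold without WT mouse 4 (1.71, adjusted p = 0.092), but missed it at 0.84 without WT mouse 2 and at 0.46 with normexp. The bile acid enzyme *Slc27a5* (-0.03) and the phosphatidylcholine transporter *Abcb4* (-0.19) were lowest.

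The 3 genes that SHP represses were not called. *Cyp7a1*, the rate-limiting enzyme of bile acid synthesis, was 2.75, 1.35, 1.20 and 1.90 in WT liver and 2.23, 2.07, 0.84 and 1.88 in KO liver, a log2 fold change of -0.05 (95% interval -0.97 to 0.87). This interval is too wide to tell whether the genotypes differ by 1.5-fold. *Cyp8b1*, the sterol 12-alpha-hydroxylase, had -0.19, and the bile acid importer *Slc10a1* had -0.08 with its brightest probe and 0.27 with the other.

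Of 21 PXR and CAR targets, 19 were tested and none was called, with a median of 0.08. For 10 of the 19 the 95% interval lay within 1.5-fold, a smaller share than the 76.2% of all genes. Counted at an unadjusted p under 0.05 (limma), 3 targets were higher and none was lower, against 802 and 1161 of all 14067 genes. The largest differences of all the lists were in 2 cytochrome genes of this list. *Cyp2b9* was -3.47, -1.01, -0.36 and -1.10 in WT liver and 0.02, 0.81, 4.21 and 0.72 in KO liver. No WT value reached a KO value, but WT mouse 1 and KO mouse 3 were far from their groups, and the log2 fold change of 2.92 (SE 0.99) had an adjusted p of 0.263. Without KO mouse 3 it was 2.00 (adjusted p = 0.31), and with the replicate block it passed the threshold (adjusted p = 0.121).

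*Cyp2b10* was -1.80, 0.34, 1.12 and 0.53 in WT liver and 1.11, 2.20, 4.23 and 2.10 in KO liver, so that KO mouse 1 lay just under WT mouse 3. The log2 fold change was 2.36 (SE 0.78, adjusted p = 0.255), and a dimmer probe gave 2.26 without overlap and passed both thresholds (adjusted p = 0.188). The brightest probe passed them with the replicate block (adjusted p = 0.0783) and with normexp (2.09, adjusted p = 0.192). *Cyp2b9* and *Cyp2b10* are close in sequence, and cross-hybridization was not tested. KO mouse 3, the highest for both genes, had an *Nr1i3* value of 2.10, between those of the other KO mice. This value is an RNA level and not the activity of CAR, whose part in these differences was not tested. *Cyp2a5* (-0.14) and *Gadd45b* (-0.37) were the lowest of this list.

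**Figure D3:**
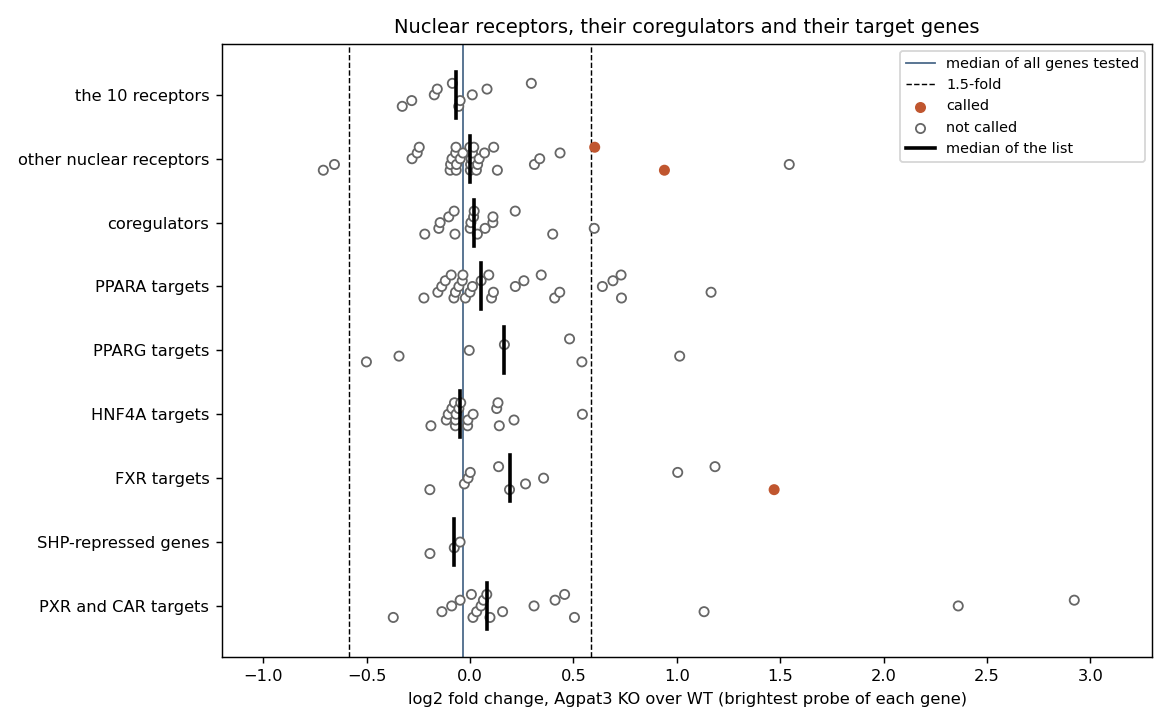
Log2 fold change, *Agpat3* KO over *Agpat3* WT, of every tested gene of 9 lists by its brightest probe; filled points were called, black bars are list medians, the thin line is the median of all genes tested, and dashed lines mark 1.5-fold. Called genes appear among other nuclear receptors (*Rarb* and *Esr1*) and FXR targets (*Pltp*), and none among the 10 receptors.

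**Figure D4:**
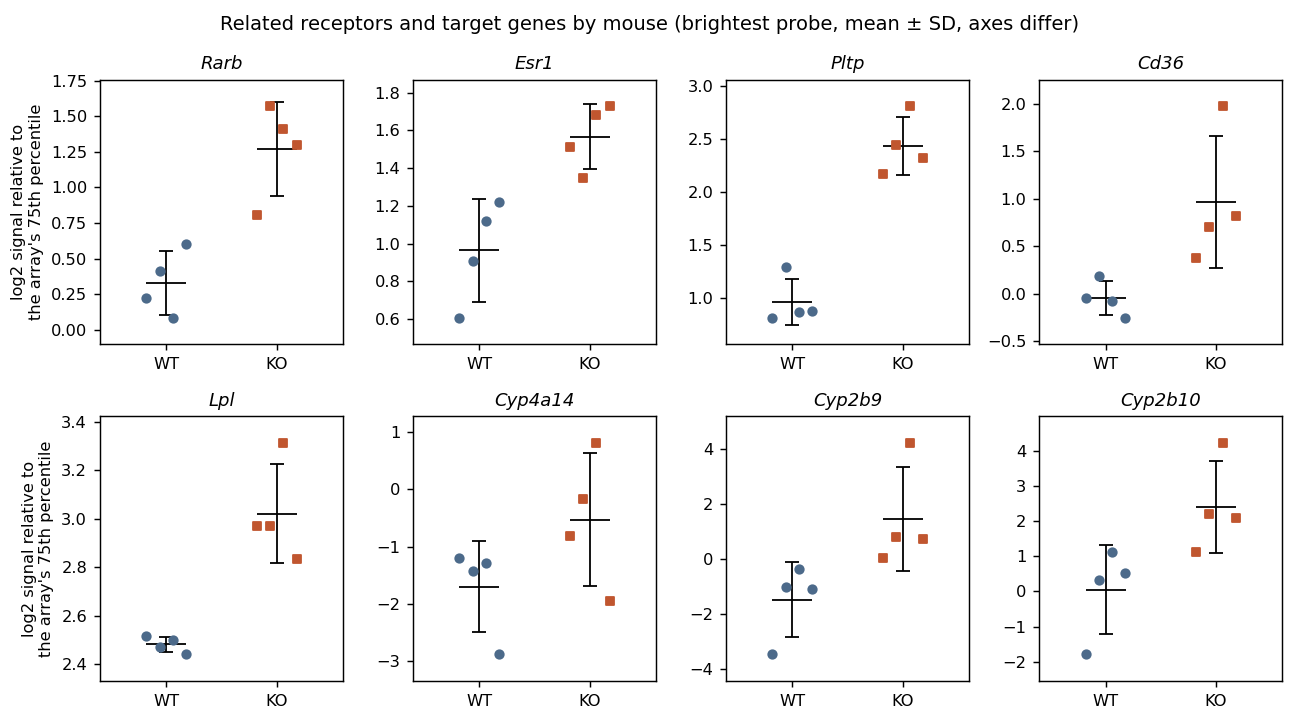
Log2 signal scaled to the 75th percentile of its array in 4 *Agpat3* WT (circles) and 4 *Agpat3* KO (squares) livers for 8 related genes, with mean and SD; the axes differ between panels. The 8 genes were picked with their values known. *Rarb*, *Esr1*, *Pltp*, *Cd36*, *Lpl* and *Cyp2b9* show no overlap between genotypes. Of all 14067 genes tested, 540 had all KO values above all WT values. KO mouse 3 is at 4.21 for *Cyp2b9* and 4.23 for *Cyp2b10*.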

How the data were processed

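Liver RNA of 4 *Agpat3* WT and 4 *Agpat3* KO mice was measured on one-color Agilent arrays, grouped by the genotype in the labels. The authors deposited the spot intensity of each array from Feature Extraction 10.7.1.1, background-corrected by that program, and a table of log2 values. The deposited log2 values differed from log2 intensity minus the 75th percentile of the array by at most 0.0085. Arrays have no sequencing depth, and the number of arrays limits the precision. No spots were saturated, and the 86 to 150 spots marked as outliers on an array were dropped.

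Spots of a probe were averaged, and 29069 of 56605 probes, those well above background in every mouse of WT, of KO or of both, were tested with lmFit and eBayes of limma 3.58.1 (R 4.3.3), after a check on simulated data. The fold and p thresholds follow the study. Its array methods were not used here, and an adjusted p was chosen. Permutation tests were exact over 70 assignments. Symbols were matched through RefSeq accessions for 32994 probes, and a gene was read from its brightest probe. Array positions, of another mouse build than the RefSeq promoter table (GRCm38.p6), were not used.

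The receptors, gene lists and alternatives were chosen with earlier results of these data known. Named genes were all 10 receptors, *Agpat3*, called list genes, and the 2 highest and 2 lowest of each list (1 of these is not reported here), besides those named as seen afterwards and the cell markers. Alternatives were normexp background correction (offset 50), quantile and median scaling, the deposited values, no or a stricter filter, outlier spots kept, trended and robust variances, a replicate block, an unpaired test on the same values, the mean of a gene's probes, other thresholds, and each mouse left out.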

Additional observations from a re-analysis of the deposited data

Results flagged for a closer look

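Within each genotype, the most extreme mouse was compared with the other 3 for every named gene, in 84 groups of 4, and 6 groups held a mouse whose gap to its nearest neighbor, relative to the range of the group, was above the 95% critical value of Dixon. Chance flags about 1 in 20 such groups. None was in a value of the 10 receptors. *Nr4a1* was 2.74 in KO mouse 4 against 0.40 to 0.73 in the other KO mice. *Crebbp* was 1.26 in WT mouse 4 against 1.95 to 2.06, and *Ncor1* was 3.44 in KO mouse 1 against 3.25 to 3.28. *Cyp4a14* was -2.88 in WT mouse 4 against -1.43 to -1.19. *G6pc* was 5.69 in KO mouse 3 against 7.30 to 7.52, and *Pltp* was 1.29 in WT mouse 2 against 0.82 to 0.88, still below every KO mouse.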

How the results depend on the processing

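No receptor passed both thresholds under any of 19 other settings of the fit, and 180 of 190 log2 fold changes of the receptors kept their sign. Settings that changed only the filter, the variances, the block or the test left these values unchanged. Their signs could not differ, so this count overstates the agreement. Values near 0 changed sign: *Nr0b2* was -0.0142 with normexp, -0.0270 with median scaling and -0.17 to 0.16 with 1 mouse left out. With 1 mouse left out, *Ppara* ranged from -0.20 to 0.0057, *Ppard* from -0.10 to 0.0060, *Nr1h4* from -0.14 to 0.0194, *Nr1i3* from -0.0112 to 0.20, *Cyp7a1* from -0.25 to 0.27, *Cyp8b1* from -0.31 to 0.0354, *Cyp2a5* from -0.35 to 0.0359 and *Slc27a5* from -0.0735 to 0.0365. Quantile normalization turned *Apoc3* (0.0042), *Slc27a5* (0.0302) and *Slc10a1* (0.0456), and the mean of the probes turned *Slc10a1* (0.10). *Rxrb* lay between -0.32 and -0.23 with an adjusted p of 0.0772 to 0.376, *Hnf4a* between -0.41 and -0.21 (0.21 to 0.563) and *Rxra* between -0.20 and -0.08 (0.191 to 0.69). Scaling moved the median of all genes between -0.07 and -0.02.

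Without a fold minimum, 1 receptor was called lower, and 3 at an unadjusted p under 0.05. Against 484 probes called, there were 245 with normexp, 253 with no filter on dim probes, 269 with the unpaired test, 1202 without a fold minimum, 117 at an adjusted p under 0.05, 3859 at an unadjusted p under 0.05 and 250 to 610 with 1 mouse left out (306 without WT mouse 2, 250 without WT mouse 3, 255 without KO mouse 2). Against 3 list genes called higher, there were 1 with no filter and at an adjusted p under 0.05, 6 with the mean of the probes and without a fold minimum, 20 (and 4 lower, against 0) at an unadjusted p under 0.05, and 2 to 7 (0 to 1 lower) with 1 mouse left out, 7 without WT mouse 4. *Pltp* was called in 19 of 19 settings, *Rarb* in 18 (adjusted p = 0.204 with no filter) and *Esr1* in 8. The causes were not tested.

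The replicate block gave 592 probes, 6 list genes called higher and no receptor, with *Cyp4a14* (adjusted p = 0.18), *Cyp2b9* (0.121) and *Cyp2b10* (0.0783) added. Same-numbered mice shared a slide column, and no label pairs them. Their deviations correlated at 0.33, -0.11, 0.10 and 0.32, and the best partner of WT mice 1, 3 and 4, but not of WT mouse 2, was the KO mouse of their number. The main fit took no pairs because no label gives them, and the part of the slide column was not tested. Dim probes and 4 mice per genotype limit what could be detected.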
